A study of Mus musculus with 4 samples.

Results

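Visium spatial transcriptomes of mouse liver were examined here for 10 genes of recruited monocytes and macrophages, taken by symbol from the 31253 genes of the deposited matrices: the chemokine receptors Ccr2 and Cx3cr1, the signalling adaptors Tyrobp and Fcer1g, the lysosomal and pore-forming proteins Lyz2, Cd68 and Mpeg1, and S100a4, Ms4a7 and Cd52. All 10 symbols were found. In Visium, barcoded spots on a slide capture the RNA of the tissue above them, so that each spot holds several cells and was given no cell type here. Of the 4 sections, MAFL-1 and MAFL-2 came from mouse livers of the MAFL model after 8 weeks on the diet labelled WD, and MASH-1 and MASH-2 from the MASH model after 16 weeks on it. Diet is shared by all 4 sections, while model name and weeks on the diet change together and cannot be told apart. The labels used here give no strain, sex, age or genotype, and leave it unsaid whether each section is of its own animal. P-values of MASH against MAFL therefore measure only the spread between these sections. Those of lobule zones and spot classes rest on the spread left among sums taken from the same sections.

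Liver holds resident macrophages, the Kupffer cells, which line the sinusoids and in mice carry the lectin Clec4f. When liver is injured or loaded with fat, monocytes leave the blood, mature in the tissue, and may take on the state of lipid-associated macrophages, of which the membrane glycoprotein Gpnmb is a marker. Most of the 10 genes are not private to one of these states: Tyrobp, Fcer1g, Cd68 and Mpeg1 are also active in Kupffer cells, Lyz2 in neutrophils, S100a4 in T cells and fibroblasts, and Cd52 in lymphocytes.

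The sections held between 1862 and 2467 spots with at least 500 unique molecular identifiers (UMIs), 32249289 to 63808230 UMIs in all, with a median of 15430.5 to 25291 UMIs per spot. Levels are given as CPM, the UMIs of a gene scaled to a common total of its section or spot class. The hepatocyte marker Alb stood between 48049 and 56457 CPM and Clec4f at 92.3, 118, 142 and 146 CPM, where values by section are always given for the MAFL sections first and, within a group, in order of section number. Gpnmb stood at 0.217, 0.367, 12.6 and 42.4 CPM and did not pass the test over all genes (adjusted p = 0.0957, edgeR quasi-likelihood test). Any pair of sections shared 1182 to 1725 spot barcodes, which in Visium name positions on a slide and not cells.

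Together the 10 genes took 179 and 212 CPM in the MAFL sections and 532 and 627 CPM in the MASH sections. Every one of the 10 had a positive MASH-over-MAFL fold change, and 3 passed the test: Lyz2, Tyrobp and Fcer1g. The 3 calls stand against 0.309% of 13593 tested genes called higher in MASH (0.456% in either direction; edgeR quasi-likelihood test, Benjamini-Hochberg adjusted p of 0.05). In 9 of the 10 both MASH sections lay above both MAFL sections, which held for 34.1% of all tested genes. The median log2 fold change of the 10 was 1.60, against 0.01 over all tested genes. In such sums, more cells of a type and more RNA per cell cannot be told apart.

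**Figure D1:**
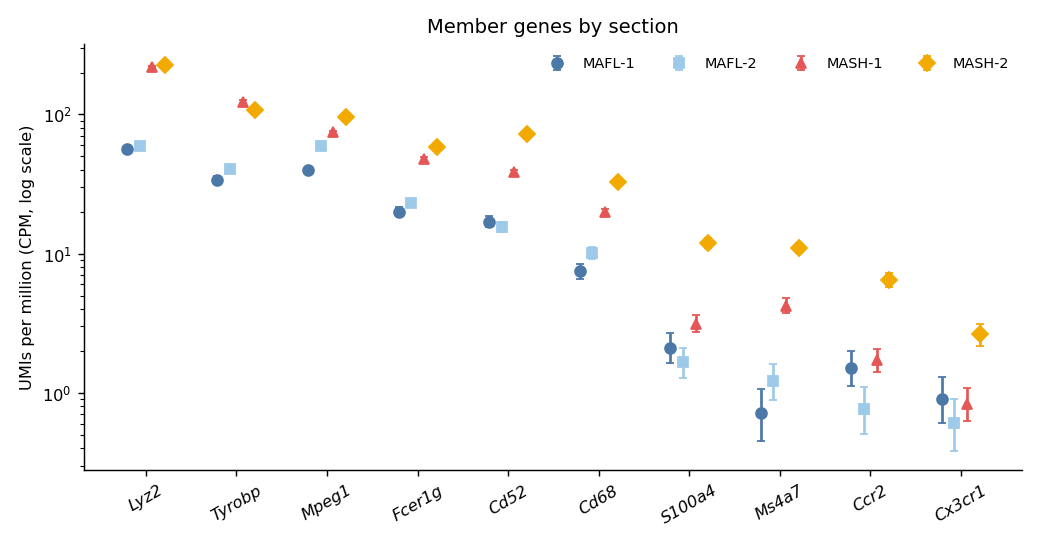
CPM (log axis) of each of the 10 genes in the 4 sections, ordered by mean level, with bars for the 95% exact Poisson interval of the count, which covers counting error only. Lyz2 stood at 218 and 228 CPM in the MASH sections against 56.0 and 59.5 in the MAFL sections, while Ccr2 (6.46 CPM) and Cx3cr1 (2.62 CPM) were clearly higher in MASH-2 than in the other 3 sections.

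Ccr2, the receptor for Ccl2 through which classical monocytes are drawn from the marrow and blood, was measured at 1.52, 0.761, 1.72 and 6.46 CPM. Only MASH-2 stood clear: MASH-1 was 1.13 times the higher MAFL section, and their 95% Poisson intervals overlapped (1.42 to 2.08 CPM against 1.12 to 2.01). Its log2 fold change of 1.72 (SE 0.70) did not pass (adjusted p = 0.273). Cx3cr1, the receptor for the membrane-bound chemokine Cx3cl1 and a gene of patrolling monocytes and of young monocyte-derived macrophages, stood at 0.899, 0.603, 0.831 and 2.62 CPM. Here the groups overlapped, with MASH-1 between the MAFL sections, and the log2 fold change was 1.06 (SE 0.56, adjusted p = 0.342). Both receptors rested on few molecules, 23 to 49 UMIs per MAFL section and 53 to 288 per MASH section.

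The ligands of the receptors were scarce as well. Ccl2, the main ligand of Ccr2, stood at 0.620, 0.892, 1.58 and 5.38 CPM, with MASH-2 again the highest section (log2 fold change 2.04, SE 0.61, adjusted p = 0.186). Ccl7, another ligand of Ccr2, gave a log2 fold change of 2.05 (SE 0.55, adjusted p = 0.135), and Cx3cl1 one of 0.38 (SE 0.64, adjusted p = 0.776). Of 5 ligand genes listed, 4 were tested and 0 passed in edgeR, 2 had an unadjusted p under 0.05 and DESeq2 called 1. All 4 were positive, with a median of 1.21.

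Tyrobp and Fcer1g are the adaptors that give receptors without a signalling tail an immunoreceptor tyrosine-based activation motif (ITAM), Tyrobp for Trem2 and others, Fcer1g for Fc receptors. Tyrobp stood at 33.9, 40.3, 123 and 108 CPM. Both MASH sections lay well above both MAFL sections, and Tyrobp was the single gene of the 10 that was higher in MASH-1 than in MASH-2. It rose with a log2 fold change of 1.54 (SE 0.19, adjusted p = 0.0297). Fcer1g stood at 20.0004, 23.1, 47.9 and 57.9 CPM, with no overlap of the groups, and rose by 1.18 on the log2 scale (SE 0.16, adjusted p = 0.0406).

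Genes around these adaptors were listed with earlier results known. The list holds receptor partners and kinases, and also phosphatases and an inhibitory receptor that oppose such signalling. Among the 22 tested, 21 had a positive fold change and 1 passed. This was Fcgr3, a low-affinity Fc receptor that needs Fcer1g, at 7.32, 5.93, 18.5 and 21.4 CPM (log2 fold change 1.49, SE 0.16, adjusted p = 0.0188). Trem2, a lipid-sensing receptor that signals through Tyrobp, stood at 1.77, 2.47, 10.2 and 20.2 CPM and came to 2.71 (SE 0.36, adjusted p = 0.0550). The median over the 22 was 0.67.

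Lyz2, the lysozyme of macrophages, monocytes and neutrophils, was the most abundant of the 10 in MASH. It stood at 56.0, 59.5, 218 and 228 CPM, so that the sections of a group lay close together and the groups far apart. The rise was 1.85 on the log2 scale (SE 0.17, adjusted p = 0.00863), about 3.59-fold. After each spot was thinned at random to 5000 UMIs, which evens out depth, 24.2 and 25.7% of MAFL spots and 57.5 and 59.9% of MASH spots held a Lyz2 UMI. The close homologue Lyz1 was counted at 3 to 16 UMIs per section against 1806 to 13894 for Lyz2, and how reads alike in both were assigned is not given in the sources used here.

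Cd68, a glycoprotein of the lysosome membrane, stood at 7.44, 10.1, 19.9 and 32.9 CPM. The groups did not overlap, but the log2 fold change of 1.47 (SE 0.26) missed the threshold with an adjusted p of 0.0781. Mpeg1, the pore-forming protein perforin-2 of phagocytes, stood at 39.8, 59.1, 74.4 and 95.6 CPM. Its sections rose in small steps across the groups, and it had the smallest fold change of the 10, 0.67 on the log2 scale (SE 0.23, adjusted p = 0.204).

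S100a4, a calcium-binding protein of motile cells, stood at 2.11, 1.65, 3.13 and 11.9 CPM. As with the receptors, MASH-2 stood far above the other 3 sections (log2 fold change 1.86, SE 0.67, adjusted p = 0.253). Ms4a7, a four-pass membrane protein of monocyte-derived macrophages, stood at 0.713, 1.21, 4.23 and 11.0 CPM. Both MASH sections were clear of the MAFL sections, by 3.51 and 9.11 times the higher of those, and its log2 fold change of 2.83 was the largest of the 10 (SE 0.53, adjusted p = 0.103). Cd52, a small surface glycoprotein of leukocytes, stood at 17.0, 15.5, 38.6 and 72.5 CPM, without overlap (log2 fold change 1.65, SE 0.27, adjusted p = 0.0671).

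The MASH sections differed from each other by gene. For Lyz2, Tyrobp, Fcer1g and Mpeg1, MASH-2 was 0.876 to 1.29 times MASH-1. For Cd68 and Cd52 it was 1.66 and 1.88 times, and for the 4 scarcest genes 2.60 times (Ms4a7), 3.16 times (Cx3cr1), 3.75 times (Ccr2) and 3.79 times (S100a4). Most lists of other cells also stood higher in MASH-2 than in MASH-1. The summed level of 12 neutrophil genes was 18.9, 30.2, 47.0 and 142 CPM in the 4 sections, of which Lcn2, which hepatocytes also make, gave 9.49, 11.4, 37.9 and 122, while S100a8 stayed between 3.17 and 7.79 CPM and Ly6g was at 0 in 3 sections. The 14 T and NK cell genes came to 14.5, 13.9, 32.1 and 40.9 CPM and so stood higher in both MASH sections. Of the 12 tested, 11 had a positive fold change and 1 passed, the chemokine Ccl5 at 6.39, 5.82, 20.3 and 21.5 CPM (log2 fold change 1.68, SE 0.15, adjusted p = 0.00863). The T cell receptor chains were scarce and differed. Cd3e lay between 0.878 and 1.57 CPM with the groups overlapping. Cd3d (1.46, 1.02, 1.68 and 2.87 CPM) and Cd3g (1.12, 0.708, 1.55 and 2.69 CPM) stood higher in both MASH sections. The 9 B and plasma cell genes came to 16.1, 26.0, 43.3 and 182 CPM, mostly Igkc. The 13 stellate cell and fibroblast genes came to 245, 218, 360 and 596 CPM, and 11 of the 13 had a positive fold change. The 9 bile duct genes came to 554, 478, 518 and 864 CPM, with MASH-1 between the MAFL sections. Most of each sum was Krt8 (193, 190, 251 and 337 CPM) and Krt18 (268, 220, 174 and 220 CPM), which hepatocytes also make. The 6 erythroid genes went the other way, at 4208 CPM in MASH-1 and 1420 in MASH-2. The part of these cells in the levels of Lyz2, S100a4 and Cd52 was not tested.

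The 3 calls were sensitive to single sections. Without MAFL-1, 0 of the 10 passed in edgeR and 6 had an unadjusted p under 0.05, the smallest adjusted p being 0.0695 for Lyz2. Without MASH-2 only Lyz2 passed (log2 fold change 1.87, adjusted p = 0.0377). Without MASH-1, 8 did, among them Ccr2, S100a4 and Ms4a7. With all 4 sections DESeq2 called 7 of the 10.

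Of 38 further monocyte and macrophage genes, 36 had a positive fold change, 2 passed and the median was 0.95. The 2 were Fcgr3 and the integrin chain Itgb2, at 5.55, 5.64, 12.5 and 19.2 CPM (log2 fold change 1.39, SE 0.20, adjusted p = 0.0462). Next came Spi1, the transcription factor that sets myeloid identity, at 1.09 (SE 0.18, adjusted p = 0.0580). Of 15 Kupffer cell genes 10 were positive, with a median of 0.34. Of the 15, 0 passed in edgeR, 4 had an unadjusted p under 0.05 and DESeq2 called 1. This list was mixed, and Cdh5 on it is also on the endothelial list. Clec4f, Cd5l (97.3, 145, 210 and 210 CPM) and Vsig4 (28.2, 36.2, 57.9 and 51.7 CPM) stood higher in both MASH sections. C6 (214, 143, 100 and 96.4 CPM) stood lower in both, and Timd4 and Cd163 overlapped between the groups. Of 12 tested lipid-associated macrophage genes 11 were positive, with a median of 1.89; 0 passed in edgeR, 9 had an unadjusted p under 0.05 and DESeq2 called 8.

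Promoters were read for genes of the 10, since Spi1 is known to bind a purine-rich element holding the letters AGGAAG in front of many myeloid genes. RefSeq gave 9 promoters for 8 of the 10 genes (build GRCm38.p6, the 250 bases before the start). AGGAAG or its reverse complement CTTCCT stood in 3 of the 9, against 29.5% of 32851 promoters of the same length. The 3 are shown with the motif in capitals, 5′ to 3′ on the gene's strand: Lyz2 with a match on either strand (chr10:117282273-117282522, minus strand), Fcer1g (chr1:171234350-171234599, minus strand) and S100a4 (chr3:90603520-90603769, plus strand).
Lyz2: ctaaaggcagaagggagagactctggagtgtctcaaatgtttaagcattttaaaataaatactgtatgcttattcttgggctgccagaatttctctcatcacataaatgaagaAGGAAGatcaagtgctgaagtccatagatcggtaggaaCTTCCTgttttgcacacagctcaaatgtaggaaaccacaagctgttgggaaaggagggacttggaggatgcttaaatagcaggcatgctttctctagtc
Fcer1g: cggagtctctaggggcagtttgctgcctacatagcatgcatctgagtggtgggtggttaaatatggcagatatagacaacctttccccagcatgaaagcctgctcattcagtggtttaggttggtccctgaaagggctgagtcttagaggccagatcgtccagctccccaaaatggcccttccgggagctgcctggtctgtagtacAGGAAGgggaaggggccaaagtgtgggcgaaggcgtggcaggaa
S100a4: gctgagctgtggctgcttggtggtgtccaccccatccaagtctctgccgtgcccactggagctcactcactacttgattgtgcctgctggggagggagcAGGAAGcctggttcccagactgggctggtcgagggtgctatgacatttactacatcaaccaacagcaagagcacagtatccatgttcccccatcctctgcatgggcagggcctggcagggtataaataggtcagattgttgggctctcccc
Lyz2 and Fcer1g were called higher in MASH and S100a4 was not. A match describes the letters only.

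Position in the lobule was taken from the hepatocytes of each spot. Blood enters the lobule at the portal tracts and leaves at the central vein, periportal hepatocytes make Cyp2f2 and pericentral ones Cyp2e1. The spots of each section were ranked by log2((Cyp2f2+1)/(Cyp2e1+1)) and split into 3 parts of equal spot number, the pericentral, middle and periportal zone, and MASH was set against MAFL within each zone. Zones are thus relative to their section and need not be the same place in the lobule in all sections. The periportal zone spanned scores of 0.11 to 2.32 in MAFL-1 and -1.16 to 0.97 in MAFL-2. In MASH-1 it spanned -2.40 to 1.26 and in MASH-2 -1.34 to 3.04. Its Cyp2e1 stood at 1062, 2111, 2490 and 1727 CPM.

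In the periportal zone 6 of the 10 genes rose: Lyz2, Ms4a7, Tyrobp, Fcer1g, Cd68 and Cd52. There 0.913% of 12480 tested genes were called higher (1.28% in either direction). Lyz2 stood at 50.1 and 58.2 CPM in MAFL against 252 and 234 CPM in MASH, a gap many times the spread within a group (log2 fold change 2.09, SE 0.18, adjusted p = 0.0024). Ms4a7 stood at 1.10 and 1.26 against 5.76 and 12.1 CPM (2.81, SE 0.42, adjusted p = 0.0318), and Cd52 at 16.4 and 15.6 against 44.2 and 76.9 CPM (1.84, SE 0.26, adjusted p = 0.0267). For each of these the lower MASH section was clear of the MAFL sections. Tyrobp rose by 1.65 (SE 0.23, adjusted p = 0.0243), Fcer1g by 1.22 (SE 0.17, adjusted p = 0.0243) and Cd68 by 1.52 (SE 0.27, adjusted p = 0.0489) on the log2 scale.

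In the pericentral zone 3 of the 10 rose, against 0.364% of 11802 genes called higher (0.602% either way). They were Lyz2, at 57.0 and 61.4 CPM in MAFL and 180 and 212 CPM in MASH (log2 fold change 1.59, SE 0.17, adjusted p = 0.00497), Tyrobp (1.39, SE 0.17, adjusted p = 0.0108) and Fcer1g (1.21, SE 0.19, adjusted p = 0.0284). In the middle zone the same 3 of 9 tested genes rose, against 0.319% of 11913 genes (0.453% either way), and Cx3cr1 was too scarce to be tested. No fold change of a tested member was negative in any zone. A call in one zone and not in another does not show that the zones differ. Leaving out MAFL-1 left 2 calls in the periportal zone and 0 in the pericentral and middle zones, where 7 and 6 members kept an unadjusted p under 0.05. Leaving out MAFL-2 left 5 in the periportal zone and again 0 in the others. Leaving out MASH-1 gave 9, 7 and 9 calls in the pericentral, middle and periportal zones, and leaving out MASH-2 gave 6, 2 and 5.

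**Figure D2:**
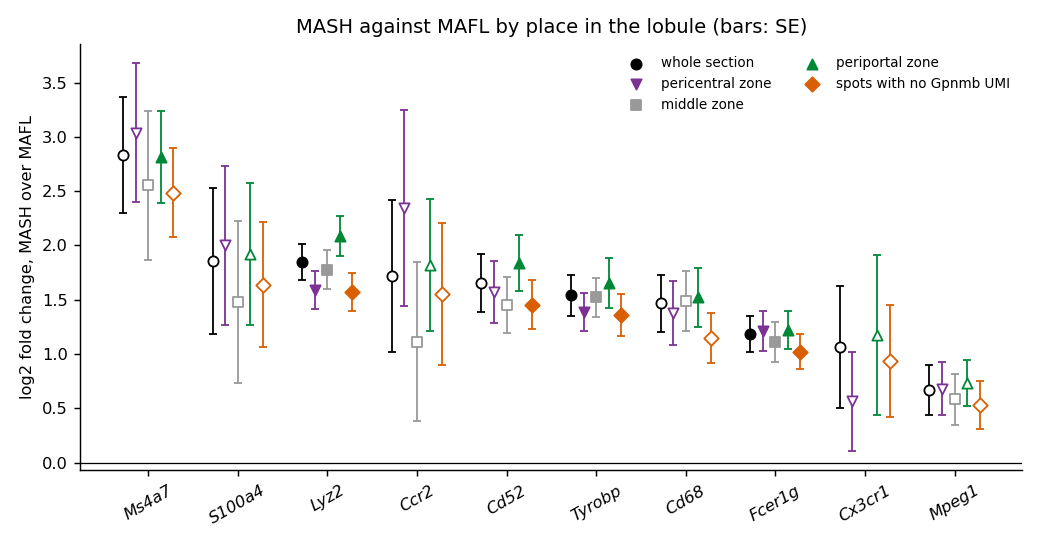
Log2 fold change of MASH over MAFL (bars: SE) for each gene in whole sections, in each zone of the lobule and in spots without a Gpnmb UMI, with filled symbols where the adjusted p passed 0.05. In the periportal zone 6 symbols are filled, in the pericentral and middle zones 3, and Ccr2, Cx3cr1, S100a4 and Mpeg1 have none.

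The same rise was seen in spots that held no Gpnmb UMI, 2029 and 1868 spots in the MAFL sections and 1993 and 1103 in the MASH sections. In them 4 of the 10 rose, against 0.406% of 13316 genes called higher (0.638% either way): Lyz2 by 1.57 on the log2 scale (SE 0.17, adjusted p = 0.0106), Tyrobp by 1.36 (SE 0.20, adjusted p = 0.0330), Cd52 by 1.46 (SE 0.22, adjusted p = 0.0433) and Fcer1g by 1.02 (SE 0.16, adjusted p = 0.0433). Each of the 10 fold changes was smaller than over whole sections, and the difference was not tested. The rule used full counts and left out 474 and 759 MASH spots against 7 and 13 MAFL spots. Since MASH spots with Gpnmb held more of most members (below), leaving them out was likely to lower the fold changes. The smaller values therefore say little by themselves. Without MASH-2 only 1 call was left. A spot with no Gpnmb UMI can still hold cells with Gpnmb RNA that was not captured.

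Zones of the same section were compared next, with the section as a block, and no log2 fold change of the 10 was above 0.90. Over all 4 sections 7 of the 10 were higher in the periportal than in the pericentral zone, a comparison in which 11.4% of 12575 genes were called higher and 23.1% either way. Ms4a7 led with a log2 fold change of 0.90 (SE 0.15, adjusted p = 9.59e-06): its periportal zone was 2.42, 1.90, 2.30 and 1.45 times its pericentral zone. S100a4 followed with 0.82 (SE 0.14, adjusted p = 1.62e-05), at 2.25, 1.47, 2.08 and 1.45 times. Both were therefore higher in the periportal zone in every section, on few molecules in MAFL. Ms4a7 had 12 periportal against 5 pericentral UMIs in MAFL-1 and 18 against 8 in MAFL-2. S100a4 had 29 against 13 and 26 against 15.

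Cd52 was also periportal in all 4 sections, at 1.11, 1.12, 1.42 and 1.19 times (log2 fold change 0.36, SE 0.06, adjusted p = 1.56e-05). Tyrobp (0.30, SE 0.08, adjusted p = 0.0100), Cd68 (0.24, SE 0.08, adjusted p = 0.0237), Fcer1g (0.22, SE 0.06, adjusted p = 0.00362) and Mpeg1 (0.21, SE 0.05, adjusted p = 0.00156) passed with small differences. In MASH-2 each of these 4 was slightly lower in the periportal than in the pericentral zone, between 0.951 and 0.994 times, and Cd68 was lower in MAFL-1 too, at 0.856 times. Ccr2 (0.28, SE 0.19, adjusted p = 0.331) and Cx3cr1 (-0.21, SE 0.26, adjusted p = 0.632) did not pass. Of the 3 ligands tested, Ccl2 was higher in the periportal zone in edgeR (0.62, SE 0.19, adjusted p = 0.0150), and DESeq2 called 0. Ccl2 was scarce, at 0.620 to 5.38 CPM per section.

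Depth moved with zone in the MASH sections. The median spot held 33004.5 and 34028 UMIs in the periportal zones of MASH-1 and MASH-2 and 22911 and 15751 in their pericentral zones, against 15499 and 22462 in the periportal and 15631 and 18560 in the pericentral zones of MAFL-1 and MAFL-2. With zones ranked inside 5 bins of spot depth, S100a4, Ms4a7 and Cd52 stayed higher in the periportal zone (adjusted p = 0.000648, 0.0101 and 0.00441), the other 4 did not pass, and Lyz2 and Cd68 changed sign. The same 3 passed without MASH-1 and with library totals in place of TMM. With DESeq2, Fcer1g (adjusted p = 0.0657) and Cd68 (adjusted p = 0.245) lost their calls. In the MAFL sections alone 0 passed in edgeR, with 4 at an unadjusted p under 0.05.

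The zone pattern of Lyz2 differed between the groups. Its periportal zone was 0.880 and 0.947 times its pericentral zone in MAFL-1 and MAFL-2, and 1.40 and 1.10 times in MASH-1 and MASH-2. In MAFL its highest zone was thus never the periportal one, and in MASH it was in both sections. Some of these gaps were small. In MAFL-2 the pericentral and periportal zones stood at 61.4 and 58.2 CPM, and in MASH-2 the middle and periportal zones at 231 and 234 CPM. The difference of the zone effect, MASH minus MAFL, was 0.51 on the log2 scale (SE 0.10, adjusted p = 0.00179), and Lyz2 was the 1 of the 10 called, where 0.31% of 12575 genes were called higher and 0.525% either way. The call was lost without MAFL-1 (0.45, adjusted p = 0.476), without MAFL-2 (0.56, adjusted p = 0.397), with library totals (0.44, adjusted p = 0.0974) and with zones ranked inside bins of depth, where the difference fell to 0.20 (adjusted p = 0.898). For Tyrobp, at 1.05, 1.13, 1.56 and 0.994 times, the MASH sections disagreed with each other (difference 0.26, SE 0.14, adjusted p = 0.624).

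**Figure D3:**
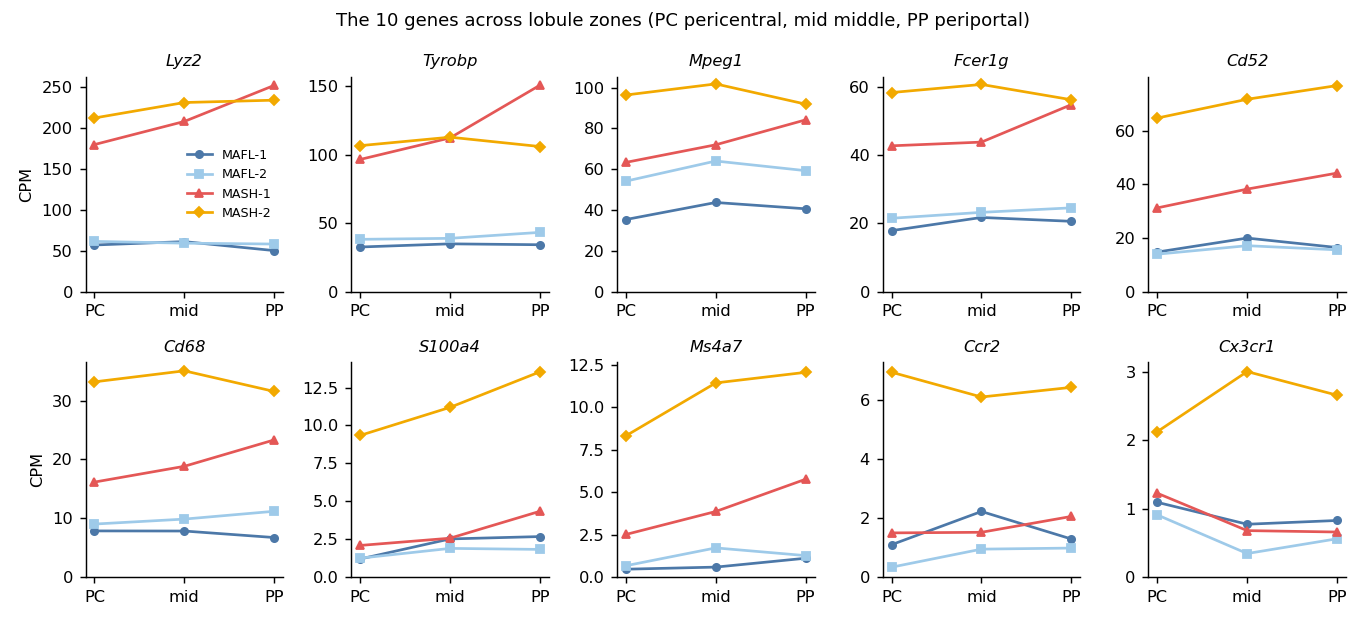
CPM of each gene in the pericentral (PC), middle (mid) and periportal (PP) zone of each section, with a line per section. Lyz2 rises towards the periportal zone in the MASH sections alone, from 180 to 252 CPM in MASH-1 and from 212 to 234 CPM in MASH-2. Ms4a7 and S100a4 are lowest in the pericentral zone of every section, for Ms4a7 in MAFL-1 by 5 against 6 UMIs in the middle zone.

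The next comparisons asked how the 10 genes lie with resident and lipid-associated macrophages. Spots were classed by whether, after thinning to 5000 UMIs, they held a Clec4f or a Gpnmb UMI, and the full counts of each class were then summed per section. A Clec4f UMI was seen in 35.5, 42.7, 46.9 and 46.4% of the thinned spots, and a Gpnmb UMI in 0.100, 0.215, 5.65 and 14.03%.

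Spots with Clec4f held more of 5 of the 10 genes than spots without, against 0.464% of 13149 genes called higher (0.54% either way). They were Tyrobp (log2 fold change 0.31, SE 0.03, adjusted p = 3.29e-14), Fcer1g (0.28, SE 0.04, adjusted p = 3.97e-07), Cd68 (0.27, SE 0.05, adjusted p = 0.000680), Cd52 (0.20, SE 0.04, adjusted p = 0.000957) and Mpeg1 (0.19, SE 0.03, adjusted p = 0.000211). The 5 differences were 1.14- to 1.24-fold, and Tyrobp was 1.18, 1.11, 1.28 and 1.28 times as high with Clec4f in the 4 sections. Mpeg1 in MAFL-2 (0.982 times) and Cd52 in MAFL-1 (0.943 times) went the other way. Spots with Clec4f were deeper in the MASH sections, with medians of 26797.5 against 24217.5 and 20848 against 19950 UMIs, and with bins of depth in the block 6 of the 10 passed. Lyz2 was 1.02, 1.08, 1.30 and 1.22 times as high and did not pass (0.26, SE 0.06, adjusted p = 0.424). Ccr2 was 0.722, 1.24, 0.810 and 1.03 times as high with Clec4f as without, with no common direction (-0.08, SE 0.14, adjusted p = 0.951), and Cx3cr1, S100a4 and Ms4a7 did not pass either. Among 38 other monocyte and macrophage genes 13 were higher in spots with Clec4f in edgeR, led by the growth factor receptor Csf1r (0.28, SE 0.03, adjusted p = 7.73e-09). DESeq2 called 0 of the 38.

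Each group was also fitted by itself. In the MAFL sections alone 0 of the 10 passed in edgeR (1 at an unadjusted p under 0.05), and in the MASH sections alone 6 did, the same 5 and Lyz2 (0.32, adjusted p = 8.66e-27), both fits chosen after seeing the data. The difference between the groups, likewise added later, was called for Lyz2 (0.25, SE 0.05, adjusted p = 0.0230) and no other member, where 0.0684% of genes were called. It was lost without MAFL-1, MAFL-2 or MASH-1 (adjusted p = 0.695, 0.136 and 0.203) and with DESeq2. Over all sections DESeq2 called Tyrobp alone, and without MASH-2 Tyrobp, Fcer1g and Mpeg1 were left.

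In the MASH sections, spots with Gpnmb held more of 8 of the 10 genes, against 2.02% of 13077 genes called higher (3.1% either way). Cd68 came to 42.1 against 18.4 CPM in MASH-1 and 56.7 against 28.8 CPM in MASH-2 (log2 fold change 1.01, SE 0.09, adjusted p = 2.44e-26). Lyz2 came to 405 against 206 CPM and 410 against 197 CPM (0.96, SE 0.05, adjusted p = 1.11e-70). The ratio was 2.28 and 1.97 for Cd68 and 1.96 and 2.08 for Lyz2, so both sections moved alike. S100a4 (0.84, SE 0.16, adjusted p = 2.14e-05), Ms4a7 (0.74, SE 0.16, adjusted p = 0.000322) and Tyrobp (0.65, SE 0.06, adjusted p = 7.08e-26) followed, then Cd52 (0.60), Fcer1g (0.58) and Mpeg1 (0.55). With DESeq2, 6 of the 10 passed, and S100a4 (adjusted p = 0.643) and Ms4a7 (adjusted p = 0.876) did not.

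The receptors of monocyte entry did not pass in spots with Gpnmb. Ccr2 stood at 1.60 against 1.70 CPM in MASH-1 and 8.5 against 6.06 CPM in MASH-2 (0.35, SE 0.23, adjusted p = 0.608). Cx3cr1 stood at 1.87 against 0.768 and 3.64 against 2.45 CPM (0.68, SE 0.34, adjusted p = 0.402). The values with Gpnmb in MASH-1 rested on 6 Ccr2 and 7 Cx3cr1 UMIs, too few to show whether these receptors differ there. Spots with Gpnmb were somewhat deeper, with a median of 26953 against 25455 UMIs in MASH-1 and 23573 against 19919 in MASH-2, and with depth bins in the block 8 of the 10 still passed. With 2 sections and 4 sums this fit has 1 residual degree of freedom, so its small p-values lean on the spread shared across genes. The same holds for the fit of Clec4f spots over all sections, with 3 residual degrees of freedom, and for the fit that follows, with 1.

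Spots with Gpnmb and no Clec4f were then set against spots with Clec4f and no Gpnmb, 64 against 1063 spots in MASH-1 and 127 against 725 in MASH-2. Lyz2 was higher with Gpnmb, at 327 against 231 and 345 against 209 CPM (log2 fold change 0.59, SE 0.06, adjusted p = 3.74e-07), and so was Cd68, at 36.4 against 20.3 and 45.3 against 31.1 CPM (0.61, SE 0.12, adjusted p = 0.00969). These 2 of the 10 stand against 0.31% of 11944 genes called higher (0.477% either way). Tyrobp (0.15, SE 0.08, adjusted p = 0.748), Fcer1g (0.21, SE 0.10, adjusted p = 0.682) and Mpeg1 (0.10, SE 0.08, adjusted p = 0.890) did not pass. With classes taken from the full counts 0 of the 10 passed in edgeR (3 at an unadjusted p under 0.05), and with DESeq2 1 did.

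The spots that held both markers had the highest summed level of the 10. In MASH-1 the sum was 458 CPM in spots with neither marker, 562 with Clec4f only, 698 with Gpnmb only and 1067 with both. In MASH-2 it was 530, 603, 828 and 1142 CPM. The order was the same in both sections, and these sums were not tested. Spots with both numbered 73 and 132. Of these 53.4% and 36.4% lay in the periportal zone, against 30.5% and 35.5% of the spots with neither, so MASH-2 hardly differed.

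**Figure D4:**
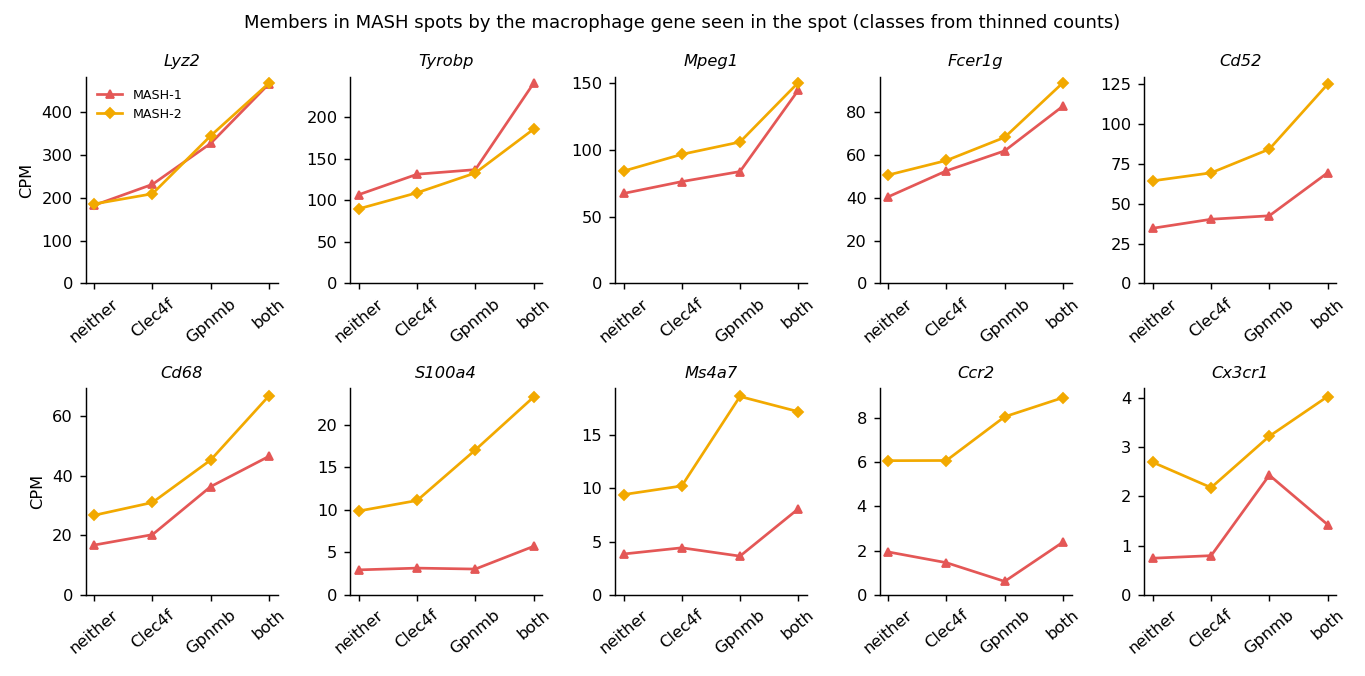
CPM of each gene in MASH spots with neither Clec4f nor Gpnmb, with one of them or with both, with a line for each MASH section. Lyz2 climbs from 183 and 186 CPM in spots with neither to 466 and 467 CPM in spots with both. Ccr2 shows no shared order in both sections, and in MASH-1 it rests on 1 UMI with Gpnmb only and 5 with both.

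Correlations over spots were weak. Spearman rho was computed over the 1846 to 2424 thinned spots of each section, where counts of a gene are mostly 0 or 1 and spots share a library. With Clec4f the median over the 10 genes was 0.00, -0.01, 0.02 and 0.04 in the 4 sections. The highest values in the MASH sections were those of Lyz2 (0.12 in MASH-1, 0.07 in MASH-2) and Tyrobp (0.11 and 0.09). With Gpnmb the medians in MASH-1 and MASH-2 were 0.04 and 0.06, and Lyz2 (0.08 and 0.12), Cd68 (0.08 and 0.11) and Mpeg1 (0.09 and 0.08) were among the highest. Another random thinning moved these values: the medians with Clec4f became 0.01, 0.01, 0.04 and 0.02, Lyz2 in MASH-2 fell to 0.02, and the lowest of the 10 with Gpnmb, Cx3cr1, came to -0.02 in MASH-1 and -0.03 in MASH-2. For scale, the middle 90% of 4155 other genes lay between -0.04 and 0.04 with Clec4f in either MASH section. Without thinning, the mean of the section medians was 0.195 with Clec4f over all 4 sections and 0.206 with Gpnmb over the MASH sections.

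**Figure D5:**
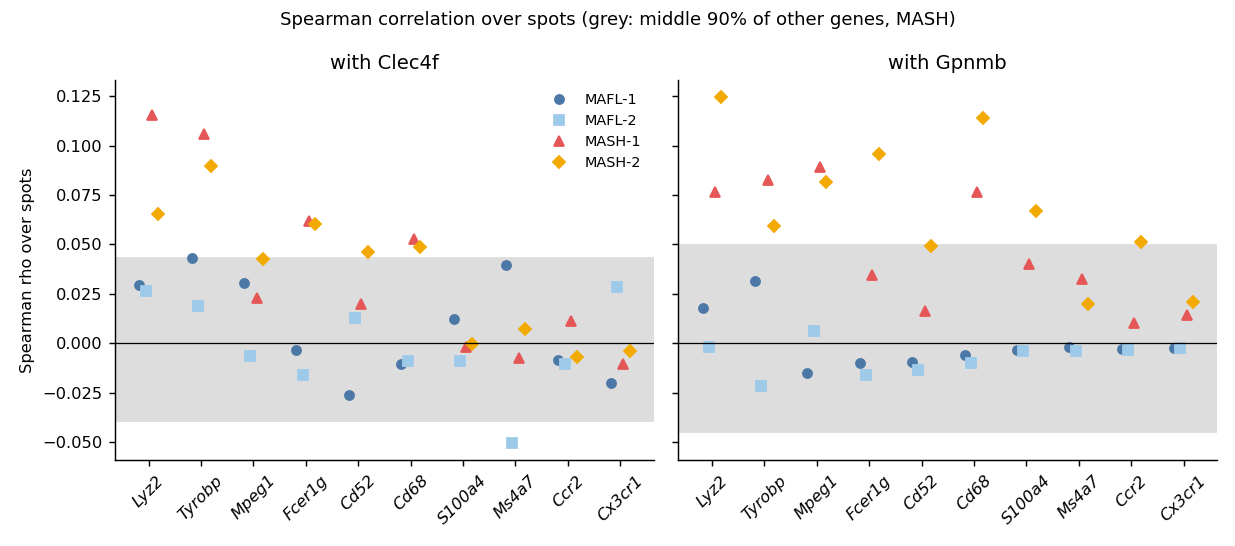
Spearman rho over thinned spots of each gene with Clec4f and with Gpnmb in the 4 sections, with the middle 90% of the other genes in the MASH sections in grey. Lyz2 and Tyrobp lie highest with Clec4f in both MASH sections, at 0.12 and 0.11 in MASH-1, under this thinning, and the MAFL values with Gpnmb rest on 2 and 4 thinned spots that held it.

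By Pearson r of log2(thinned count + 1) with the summed 10 genes, averaged over the 4 sections, the most alike of 4156 other genes of at least 20 CPM were Tmsb4x (0.23), Cd74 (0.18), H2-Ab1 (0.15), Cd5l (0.15) and H2-Eb1 (0.14). Tmsb4x encodes an actin-binding peptide abundant in leukocytes, Cd74, H2-Ab1 and H2-Eb1 belong to MHC class II antigen presentation, and Cd5l is secreted by tissue macrophages. The values were higher in MASH-1 and MASH-2 (0.29 and 0.39 for Tmsb4x) than in MAFL-1 and MAFL-2 (0.15 and 0.09). Between groups Tmsb4x (log2 fold change 1.49, SE 0.18, adjusted p = 0.0297), Cd74 (1.91, SE 0.24, adjusted p = 0.0337) and H2-Ab1 (1.57, SE 0.22, adjusted p = 0.0428) also rose, while H2-Eb1 (2.01, SE 0.29, adjusted p = 0.0550) and Cd5l (0.68, SE 0.23, adjusted p = 0.196) did not pass.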

How the data were processed

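Per the file headers the authors used Space Ranger 1.2.2, and per the submitters' processing notes the build was mm10. The deposited matrices hold counts, the whole number of UMIs of 1 gene in 1 spot. Spots of fewer than 500 UMIs were not used (MAFL-1 had 3 and MASH-1 had 3). Counts were summed per section or spot class and fitted over all genes that passed filterByExpr with edgeR 4.0.16 (TMM, robust quasi-likelihood, R 4.3.3, limma 3.58.1), with the section as a block for zones and spot classes and an interaction for differences between groups. The genes that set a class were left out of its test. Python 3.11.15, numpy 2.4.6, scipy 1.17.1, pandas 2.3.3 and matplotlib 3.10.9 did the rest. Intervals of counts are exact Poisson ones at 95% and cover counting error only. The fits were tested on simulated data.

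Members and lists were chosen with earlier results of these data known. All 10 members were named in each comparison, with up to 3 genes of smallest p from each list described, the 5 genes most alike by spot correlation, the genes the rule uses and Lyz1. Neutrophil, B cell and bile duct genes, T cell genes other than Ccl5, and Kupffer cell genes other than Clec4f and Cd5l, were named after their values were seen. Alternatives were DESeq2 1.42.0, library totals, no filter, other spot, zone and class rules, and each section left out. Deviations of same-numbered sections from their group means correlated at r = -0.19 over 13593 genes, so the numbers were not taken as pairs. The chi-square per degree of freedom between sections of a group was 67.7 in MAFL and 116 in MASH, far above counting error. With 2 sections a group, an exact permutation test cannot go below p = 0.333.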

Additional observations from a re-analysis of the deposited data

Results flagged for a closer look

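Lyz2 differed between the groups in its zone effect, the log2 ratio of the periportal to the pericentral zone, by 0.51 (MASH minus MAFL, edgeR interaction). Its periportal zone was lower than its pericentral zone in both MAFL sections, at 0.880 times in MAFL-1 and 0.947 times in MAFL-2. In MASH-1 and MASH-2 it was higher, at 1.40 and 1.10 times. The gap in MAFL-2 was small, 58.2 against 61.4 CPM, and single sections were not tested. Lyz2 also differed between the groups in how much higher it was in spots with a Clec4f UMI, by 0.25 on the log2 scale, at 1.02 and 1.08 times in the MAFL sections and 1.30 and 1.22 times in the MASH sections. In both MASH sections spots of the periportal zone and spots with Clec4f were deeper than the spots they were set against. With zones ranked inside bins of depth the zone difference was 0.20 and was not called, and the part of depth in the Clec4f difference was not tested.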

How the results depend on the processing

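Members called are given with all genes called in parentheses. MASH against MAFL over whole sections gave 3 (62), against 7 (627) with DESeq2, 7 (1153) with no filter on low counts and 0 (0) with the section number as a block, where 8 members and 1900 genes had an unadjusted p under 0.05. The pericentral zone gave 3 (71), against 6 (286) with DESeq2, 9 (1002) with no filter, 5 (108) with a zone score of 6 genes over 6 and 161 genes with the outer 20% of spots. The middle zone gave 3 (54), against 6 (253) with DESeq2, 7 (966) with no filter, 30 genes with library totals and 0 (14) with the block. The periportal zone gave 6 (160), against 341 genes with DESeq2, 1184 with no filter, 97 with the 6-gene score and 4 (71) with the block, without Tyrobp and Fcer1g. Spots with no Gpnmb gave 4 (85), against 7 (454) with DESeq2, 747 genes with no filter and 2 (48) with the block. In the pericentral zone the block left 3 calls (57 genes), 2 of them shared: Fcer1g lost its call (adjusted p = 0.0510) and Ms4a7 gained one (adjusted p = 0.0416). With the section numbers crossed (added after seeing the data) 5 members and 779 genes were called.

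The zone comparison gave 7 (2903), against 3 with library totals, 3 with bins of depth, 0 (1527) in MAFL alone, 1928 genes in MASH alone and 1685 with DESeq2. Its difference between groups gave 1 (66), against 0 with library totals, with the outer 20% of spots and with bins of depth (21 genes), and 118 genes with no filter. Spots with Clec4f gave 5 (71), against 1 (3) with DESeq2, 3 (213) with classes from full counts, 121 genes with no filter and, added later, 0 (4) in MAFL and 136 genes in MASH alone. The Clec4f difference between groups gave 1 (9), against 0 (0) with DESeq2 (23 genes at an unadjusted p under 0.05) and 16 genes with no filter. Spots with Gpnmb gave 8 (406), against 6 (69) with DESeq2, 746 with classes from full counts and 223 over all 4 sections. Gpnmb only against Clec4f only gave 2 (57), against 1 (13) with DESeq2, 0 with classes from full counts, 94 genes with no filter and 114 with zones in the block. Without thinning, median rho was 0.195 with Clec4f and 0.206 with Gpnmb, against 0.0157 and 0.0502, and the median share of spots with a UMI 34.4% against 10.7%.

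Leaving out 1 section at a time gave 0 to 8 members (20 to 535 genes) over whole sections, 0 to 9 (22 to 1503) in the pericentral, 0 to 7 (18 to 348) in the middle and 2 to 9 (72 to 711) in the periportal zone, 1 to 6 (22 to 287) without Gpnmb, 3 to 8 (1966 to 2517) for zone, 0 to 2 (7 to 441) for its difference, 3 to 6 (54 to 86) for Clec4f and 0 to 1 (4 to 39) for the Clec4f difference. It turned the sign of the log2 value for Ccr2 in the middle zone (-0.050 to 1.80), Cx3cr1 in the periportal zone (-0.10 to 1.86) and for zone (-0.72 to 0.053), and Cx3cr1 with Clec4f (-0.14 to 0.16). So it did in the zone difference for Cx3cr1 (-0.38 to 1.0008), S100a4 (-0.36 to 0.24), Ms4a7 (-0.38 to 0.13), Fcer1g (-0.11 to 0.13), Mpeg1 (-0.080 to 0.22) and Cd68 (-0.038 to 0.51), and in the Clec4f difference for Ccr2 (-0.38 to 0.41), Cx3cr1 (-1.16 to 0.19), S100a4 (-0.20 to 0.23), Ms4a7 (-0.31 to 0.93) and Fcer1g (-0.022 to 0.30).

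Other settings turned these signs. For zone they were Lyz2 -0.030 and Cd68 -0.029 with bins of depth and Lyz2 -0.12 in MAFL alone. For the zone difference they were Fcer1g -0.041 with library totals, Ms4a7 0.51 with the outer 20% of spots, and Fcer1g -0.12 and Mpeg1 -0.068 with bins of depth. For Clec4f they were Cx3cr1 0.086 with DESeq2, 0.0046 with zones and 0.013 with depth in the block and 0.32 in MAFL alone, S100a4 -0.22 and Ms4a7 -0.0041 with full counts and Ms4a7 -0.34 in MAFL alone. The Clec4f difference of Ccr2 was -0.011 with DESeq2, and Gpnmb only against Clec4f only gave Ccr2 -0.062 with DESeq2 and Tyrobp -0.058, Fcer1g -0.21 and Mpeg1 -0.18 with full counts. Of 1057 member values 845 kept direction and side of the threshold and 39 turned sign, and the cause was not tested.

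Library totals in place of TMM put the median of all genes at 0.11 over whole sections and 0.14 in the pericentral zone, against 0.01 and 0.00, and no member's direction in MASH against MAFL turned. They ended the calls of Fcer1g in the middle zone (adjusted p = 0.0768) and of Cd52 in spots with no Gpnmb (adjusted p = 0.0662).

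With 2 sections a group, single sections decided many calls, and Ccr2 and Cx3cr1, at 23 to 288 UMIs a section, allow no firm statement on small differences.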

Other observations

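Markers of freshly entered monocytes other than Ccr2 followed it in part, named here after their values were seen. Ly6c2, the surface antigen of classical mouse monocytes, stood at 2.08, 2.60, 2.51 and 7.47 CPM in the sections in the order used above. Chil3, a chitinase-like protein of mouse monocytes and alternatively activated macrophages, stood at 0.372, 0.603, 0.0940 and 0.538 CPM and so was lowest in MASH-1. Ear2, an eosinophil-associated ribonuclease, stood at 1.71, 2.75, 7.73 and 14.4 CPM, with both MASH sections above both MAFL sections.

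Among the 45 pairs of the 10 genes, the highest mean rho over thinned spots was 0.08 for Lyz2 with Tyrobp, which in 1 section was near 0, followed by 0.08 for Lyz2 with Cd52, which was at least 0.049 in every section. The median over pairs was 0.01, 0.00, 0.03 and 0.06 in the 4 sections in that order.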
